A study of Mus musculus with 72 samples.

Results

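The genes described here, 8 members of the endothelin, angiotensin and adrenergic systems, were followed in mouse hearts in which signaling through the aryl hydrocarbon receptor (AHR) had been disrupted before birth. They were taken by Entrez identifier with no filter on their values, and are 8 of the 24237 genes counted. The list was, however, chosen with earlier results of these data known. *Edn1* and *Edn3* encode endothelin peptides, *Ece1* encodes the protease that cuts their precursors into the active form, and *Ednra* and *Ednrb* encode their receptors. *Ace* encodes the enzyme that converts angiotensin I into angiotensin II, *Agtr1a* encodes the main rodent receptor of angiotensin II, and *Adrb1* encodes the main beta-adrenergic receptor of heart muscle. On GRCm38 they lie at chr13:42301476-42307990 (*Edn1*), chr2:174760619-174784042 (*Edn3*), chr4:137862237-137965229 (*Ece1*), chr8:77663029-77724452 (*Ednra*), chr14:103814615-103844508 (*Ednrb*), chr11:105967948-105989964 (*Ace*), chr13:30336356-30382867 (*Agtr1a*) and chr19:56722117-56725150 (*Adrb1*), and the counts are of reads on their coding exons.

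RNA from right atrium, left atrium and ventricles was sequenced in 72 libraries, that is, 3 libraries for each of 4 groups, both sexes and 3 chambers. The groups, in C57BL/6J mice, were naïve *Ahr*+/+ mice, untreated *Ahr*-/- mice, which lack the receptor, and *Ahr*+/+ mice exposed *in utero* to a low (0.1 µg/kg) or a high (1 µg/kg) dose of the AHR ligand TCDD (dioxin). By the study's methods the dams took TCDD by gavage on 3 days of gestation, dams of naïve mice took corn oil, and hearts were collected at 10 months. The labels give 9 months of age, name TCDD in the treatment of all 72 libraries and carry doses without a unit.

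In vessels and heart, endothelin and angiotensin II act through receptors coupled to the Gq protein to constrict smooth muscle and, in myocytes, to raise calcium and promote growth, while noradrenaline acts through *Adrb1* to raise rate and force. *Ednra* is found mainly on smooth muscle and myocytes and *Ednrb* mainly on endothelium, where it also clears endothelin from the blood. Endothelin-3 prefers the product of *Ednrb* and is best known from the development of neural crest cells.

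The files held raw counts, which are given below as CPM (counts scaled to a library total of 1000000). Library totals ran from 11873417 to 28789382 counts with a median of 19231739, so 3 counts, the limit that a count of 0 allows, stood for 0.104 to 0.253 CPM (counting error only). Counts of *Ahr* itself gave 8.59 to 30.8 CPM in naïve and 2.00 to 9.23 CPM in *Ahr*-/- libraries. The labels name cardiomyocytes, but whole chambers were dissected, and 5 endothelial markers (summed 482 to 876 CPM) and 5 fibroblast markers (605 to 2885 CPM) were read in all 72 libraries. Marker genes went against the label in 26 of 72 libraries. Sex genes did so in 8, *Myl4* (atrial against ventricular muscle) in 13 and *Bmp10* (right against left atrium) in 13, with some libraries failing more than 1 check. They were 10 of 24 right atria, 11 of 24 left atria and 5 of 24 ventricles, and no female ventricle was among them. Of the libraries numbered 49 to 72, which hold 1 library of each group, 15 of 24 went against their label, and of those numbered 1 to 48, 11 did. Some failed alike in all 4 groups. Labelled male ventricles 53, 59, 65 and 71 read as female and atrial (*Xist* 177 to 329 CPM, *Myl4* 704 to 3533 CPM). Labelled female right atria 50, 56, 62 and 68 held Y-chromosome genes at 155 to 304 CPM. Labelled male left atria 51, 57, 63 and 69 held *Myl4* at only 2.21 to 4.57 CPM. Sex in all fits is the labelled sex. Results that rest on such libraries are given with and without them. The labels do not say which libraries share a heart, and p-values measure the spread between libraries.

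The promoters of *Edn3* and *Ednrb* are shown because these were the members that passed the test in TCDD-exposed ventricles, and AHR with its partner ARNT binds a core of GCGTG. Each window holds 250 bases before and 50 after a RefSeq start site of GRCm38.p6, at chr2:174760369-174760668 (plus strand) for *Edn3* and chr14:103843652-103843951 (minus strand) for *Ednrb*, and capitals mark GCGTG on the gene's strand or its reverse complement CACGC.
Edn3: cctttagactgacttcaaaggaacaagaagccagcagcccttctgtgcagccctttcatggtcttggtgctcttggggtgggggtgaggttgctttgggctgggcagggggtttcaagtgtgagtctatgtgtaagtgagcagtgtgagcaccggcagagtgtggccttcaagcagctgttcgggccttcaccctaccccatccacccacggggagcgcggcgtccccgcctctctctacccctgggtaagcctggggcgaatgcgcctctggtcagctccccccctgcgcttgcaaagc
Ednrb: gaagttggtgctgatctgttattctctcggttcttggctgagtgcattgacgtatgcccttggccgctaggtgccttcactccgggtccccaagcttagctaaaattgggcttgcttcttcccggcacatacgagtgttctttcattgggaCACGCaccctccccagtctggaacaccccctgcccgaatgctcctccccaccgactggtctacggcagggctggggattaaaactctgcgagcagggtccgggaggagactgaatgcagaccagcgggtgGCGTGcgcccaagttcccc
The core was not in the *Edn3* window and was in the *Ednrb* window at 2 places, starting 99 bases before and 32 bases after the start site. The same letters, on either strand, were in 10639 of 32851 promoter windows of this length (32.4%). Windows were at hand for 7 members (all but *Agtr1a*), some with more than 1 window. The core was also in the window of *Adrb1* and in some but not all windows of *Ece1*, and in none of *Edn1*, *Ednra* or *Ace*. That makes 3 of 7 members with the core in any window, beside 9500 of 27025 genes (35.2%). A match is a description of the letters, and its absence says only that they are not in this window.

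Per kilobase of coding sequence, *Ece1* and *Ednra* stood highest in naïve atria, *Ednra* and *Agtr1a* in naïve ventricles, and *Edn3* lowest in all 3 chambers. In the ventricles the order of levels, in CPM per coding kilobase (mean ± SD, n = 6), was *Ednra* (71.5 ± 17.3), *Agtr1a* (60.3 ± 23.4), *Ece1* (48.2 ± 4.58), *Ednrb* (21.8 ± 0.340), *Adrb1* (12.8 ± 3.26), *Edn1* (12.4 ± 2.28), *Ace* (9.90 ± 2.98) and *Edn3* (7.31 ± 2.17). Of the neighbours in that order, the means of *Ece1* and *Ednrb* and those of *Ednrb* and *Adrb1* lay further apart than the sum of their SDs, and those of the other pairs did not. The receptor *Ednra* was thus read at a higher level per length than *Ednrb*, and both endothelin peptides stood below their receptors. With all exons in place of coding exons as the length, 13 of the 24 ranks (8 genes in 3 chambers) moved.

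In the ventricles of females exposed to the high dose of TCDD, *Edn3* rose and *Ednrb* fell relative to naïve females, which gives a pair of ligand and receptor that moved in opposite directions. *Edn3* stood at 15.3, 6.51 and 6.92 CPM in the 3 high-dose libraries and at 4.54, 3.27 and 3.64 CPM in the 3 naïve libraries. All 3 high-dose libraries lay above all 3 naïve ones, and 1 of them lay far above the other two. The log2 fold change was 1.49 with a standard error (SE) of 0.312 and an adjusted p of 0.00556 (edgeR's quasi-likelihood test, Benjamini-Hochberg over all genes tested). *Ednrb* stood at 20.2, 14.8 and 13.1 CPM in high-dose and at 28.7, 28.3 and 29.3 CPM in naïve libraries. The groups did not overlap, and the naïve libraries differed by less than 1 CPM. That spread is narrower than counting error alone gives at this level, so it is no measure of how naïve hearts vary. Naïve libraries 35 and 36 also differed least of all pairs of replicate libraries. The log2 fold change of *Ednrb* was -0.68 (SE 0.167, adjusted p = 0.0117 in edgeR). In bulk tissue, fewer cells of a type and less RNA per cell cannot be told apart.

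Among all genes, 3313 of 14006 passed the test in these libraries (23.7%), 1713 higher and 1600 lower, and 2 of the 8 members did so (25%). The members' share was thus near that of all genes and is not a result about these genes as a group. Their median log2 fold change was 0.08 beside 0.01 over all genes. With scaling by library size alone the median of all genes moved to -0.17 and the calls split into 610 higher and 1771 lower, while *Edn3* (1.33) and *Ednrb* (-0.84) kept their direction and their calls. Both calls also held in all 6 fits that left out 1 library (highest adjusted p 0.0303 and 0.0420). In 1 fit of all 4 groups *Edn3* (adjusted p = 0.110) and *Ednrb* (0.0790) lost their calls, and with libraries 1 to 48 alone *Ednrb* lost its call (0.0881).

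The other 6 members did not pass the test in high-dose female ventricles. *Edn1* stood at 7.34, 9.38 and 6.63 CPM against 9.61, 5.82 and 6.12 CPM in naïve libraries (log2 fold change 0.29, adjusted p = 0.380). *Ece1* stood at 122, 107 and 105 CPM against 104, 106 and 99.5 CPM (0.29, adjusted p = 0.113), and passed once high-dose library 44 was left out (0.0354). *Ednra* varied most, at 57.2, 105 and 42.7 CPM against 74.0, 74.8 and 89.3 CPM (-0.09, adjusted p = 0.830). The groups overlapped for each of them. *Ace* stood at 32.5, 24.7 and 22.5 CPM against 42.5, 41.5 and 27.8 CPM (-0.30, adjusted p = 0.192). *Agtr1a* stood at 46.3, 57.5 and 51.6 CPM against 72.4, 69.6 and 49.2 CPM (-0.10, adjusted p = 0.657). *Adrb1* stood at 20.5, 26.3 and 15.4 CPM against 23.1, 21.2 and 14.9 CPM (0.24, adjusted p = 0.334). For these genes, too, the libraries of the groups overlapped.

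**Figure D1:**
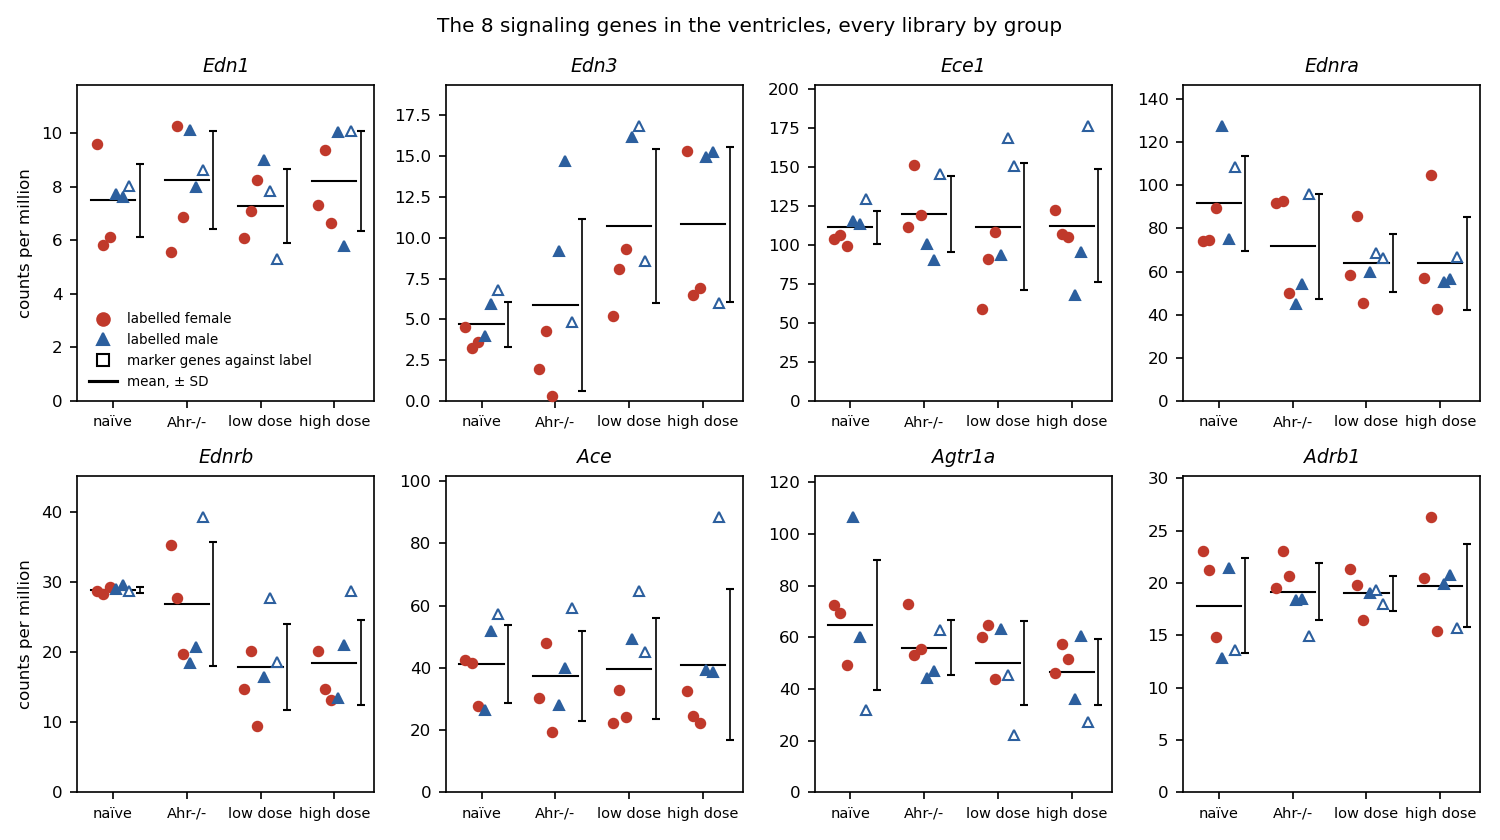
Ventricular levels of the 8 genes in CPM (vertical axis, from 0) in every library of the 4 groups (horizontal axis), with 1 point per library, marked by sex and by whether marker genes went against the label, and a line at each group's mean with an error bar of 1 SD. *Edn3* lay at 6.02 to 15.3 CPM in high-dose and 3.27 to 6.81 CPM in naïve ventricles, and *Ednrb* lay between 28.3 and 29.6 CPM in all 6 naïve ventricles.

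Markers of other cell types moved with the high dose in female ventricles, in both directions. The 5 endothelial markers summed to 572 to 692 CPM in high-dose and 583 to 660 CPM in naïve libraries, but *Tek* (49.9 to 64.7 against 79.3 to 84.5 CPM) and *Emcn* (19.6 to 25.6 against 33.2 to 43.7 CPM) were lower in every high-dose library and *Tie1* (130 to 145 against 89.4 to 108 CPM) was higher. The 5 fibroblast markers summed to 803 to 915 CPM against 943 to 1630 CPM, and 2 of them, *Dcn* and *Lum*, were lower in every high-dose library. The 3 pericyte markers summed to 122 to 137 CPM against 97.2 to 142 CPM, with none higher or lower in every high-dose library. The 4 ventricular myocyte markers summed to 7746 to 8301 CPM against 6363 to 7193 CPM, with 2 of them higher and 1 lower in every library. The 4 smooth muscle markers summed to 246 to 298 CPM against 147 to 286 CPM (2 higher in every library) and the 3 mesothelial markers to 18.1 to 19.0 CPM against 10.9 to 13.4 CPM (1 higher in every library). The 5 Schwann cell and neuron markers summed to 12.6 to 23.5 CPM against 10.0 to 25.4 CPM, with *Dbh* (2.31 to 4.00 against 0.877 to 1.67 CPM) higher in every high-dose library and *Th* at or near 0 in both groups. The 4 atrial myocyte markers summed to 30.5 to 65.2 CPM against 57.3 to 587 CPM, with *Nppa* (27.0 to 41.5 against 51.3 to 244 CPM) lower in every high-dose library. *Sln* was lower as well (0 to 0.06 against 0.16 to 34.4 CPM), but its high-dose values and its lowest naïve value lay under the 3-count limit. The part of these cell types in the changes of *Edn3* and *Ednrb* was not tested.

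In the ventricles of females exposed to the low dose, values were of similar size but did not pass edgeR's test. *Edn3* stood at 5.19, 8.11 and 9.32 CPM and *Ednrb* at 14.7, 20.1 and 9.50 CPM, against the same 3 naïve libraries. Neither gene overlapped between the groups, but nothing is read from that, since the share of all genes without overlap was not counted. The log2 fold changes were 1.18 for *Edn3* and -0.83 for *Ednrb* (each with an adjusted p of 0.147 in edgeR), and 0 of 13966 genes were called (0%). DESeq2 called *Ednrb* there (adjusted p = 0.0314). The high and the low dose, compared directly in female ventricles, differed by 0.29 (log2) in *Edn3* and 0.13 in *Ednrb*, and neither difference passed the test (lowest adjusted p of any member in any of 6 such comparisons 0.452).

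In male ventricles the fold changes pointed the same way without passing edgeR's test on all libraries. *Edn3* stood at 14.9, 15.3 and 6.02 CPM at the high dose and 16.2, 16.9 and 8.59 CPM at the low dose, against 3.97, 5.93 and 6.81 CPM in naïve males. The lowest high-dose library and the highest naïve library overlapped, and both went against their label by marker genes, as did the lowest and the highest low-dose library. Libraries 53, 65 and 71, 1 in each of these groups, read as female and atrial by those genes. The log2 fold changes were 1.17 (adjusted p = 0.525) for high-dose and 1.37 (0.290) for low-dose males, and 0% of genes were called in either comparison. DESeq2 called *Edn3* at the low dose on all libraries (adjusted p = 0.0277). Without the libraries against their label, which left 2 libraries against 2, *Edn3* passed at the high dose (1.64, SE 0.303, adjusted p = 0.0132), where 2209 of 13865 genes were called (15.9%). At the low dose it passed with libraries 1 to 48 alone (1.69, adjusted p = 0.0367), where 478 of 13898 genes were called (3.44%). Without the libraries against their label only 1 low-dose male library was left against 2 naïve ones, too few to read from (1.69, adjusted p = 0.0735). *Ednrb* (-0.49 and -0.43) and *Ednra* (-0.80 and -0.62) were below naïve at the high and the low dose in males without passing the test. *Ednra* stood at a mean of 59.4 ± 6.47 CPM at the high dose and 104 ± 26.6 CPM in naïve males (SD, n = 3), and the groups did not overlap. The share of all genes without overlap was not set beside this, so nothing is read from it.

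With both sexes in 1 fit and the labelled sex as a term, *Edn3* rose and *Ednrb* fell at both doses. *Edn3* ran from 6.02 to 15.3 CPM (median 10.9, n = 6) at the high dose, from 5.19 to 16.9 CPM (median 8.96) at the low dose and from 3.27 to 6.81 CPM (median 4.26) in naïve ventricles. The ranges overlapped at both doses, with most exposed libraries above all naïve ones. The log2 fold changes were 1.34 (SE 0.292, adjusted p = 0.0155) and 1.27 (SE 0.218, adjusted p = 0.0102). *Ednrb* ran from 13.1 to 28.7 CPM (median 17.5) at the high dose, from 9.50 to 27.8 CPM (median 17.5) at the low dose and from 28.3 to 29.6 CPM (median 28.9) in naïve ventricles. The low-dose and naïve ranges did not overlap, but the gap between them (27.8 against 28.3 CPM) was within counting error. At the high dose 1 male library that went against its label reached the naïve level. The log2 fold changes were -0.58 (SE 0.151, adjusted p = 0.0284) and -0.63 (SE 0.163, adjusted p = 0.0258). Both doses were compared with the same naïve libraries, and the female libraries are those already described, so these are not separate observations.

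Of all genes, 1840 of 14756 (12.5%) were called at the high dose, 859 of them higher, and 1816 of 14536 (12.5%) at the low dose, 871 of them higher, beside 2 of 8 members each time. Scaling by library size alone left 412 of 1474 calls higher at the high dose and 399 of 1779 at the low dose, with both members called in the same directions. Without the libraries against their label, *Edn3* was called at 1.53 (adjusted p = 0.00177) and *Ednrb* at -0.73 (0.00451) at the high dose (24.1% of all genes), and at 1.34 (0.0258) and -0.85 (0.0291) at the low dose (5.25% of all genes). Leaving out 1 library at a time kept the *Edn3* call in 12 of 12 fits at each dose, but kept the *Ednrb* call in 5 of 12 at the high dose (highest adjusted p 0.0709, without female library 66) and 6 of 12 at the low dose (0.0626, without naïve female library 54). At the low dose *Edn3* lost its call in 1 fit of all 4 groups (0.0699) and *Ednrb* with libraries 1 to 48 alone (0.0593). The other 6 members were not called at either dose. *Ednra* came closest, at -0.44 (adjusted p = 0.190) and -0.41 (0.118), and *Adrb1* stood at 19.8 ± 4.00 and 19.0 ± 1.66 CPM beside 17.9 ± 4.55 CPM in naïve ventricles (SD, n = 6).

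In *Ahr*-/- ventricles neither gene was called. *Edn3* ran from 0.326 to 14.7 CPM (median 4.57, n = 6) with a log2 fold change of 0.08 (adjusted p = 0.966), and 5 of 14738 genes were called (0.0339%). Male *Ahr*-/- libraries held 9.18, 14.7 and 4.85 CPM and female ones 1.93, 4.30 and 0.326 CPM. Of the males, 2 lay above the naïve range and of the females 2 lay below it, but the test of the difference between the sexes did not pass (log2 difference -1.71, SE 0.87, unadjusted p = 0.0715, edgeR). That test took the labels as given, although the third male library (4.85 CPM, library 59) and naïve male library 53 read as female and atrial. Without them *Edn3* ran from 0.326 to 14.7 CPM in *Ahr*-/- and from 3.27 to 5.93 CPM in naïve ventricles (n = 5 each). *Ednrb* stood at 26.9 ± 8.79 CPM (SD, n = 6) beside 28.9 ± 0.451 CPM in naïve ventricles (-0.08, adjusted p = 0.870). In *Ahr*-/- females alone, 3 of 13920 genes were called (0.0216%) and no member.

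The other genes of these pathways were read from a list of 36. In high-dose female ventricles 5 of 30 tested were called, beside 23.7% of all genes. *Lnpep*, an aminopeptidase that binds angiotensin IV and cleaves oxytocin and vasopressin, fell from 140, 211 and 227 CPM to 61.1, 80.9 and 83.4 CPM (-1.18, adjusted p = 0.000434). *Rgs5*, a pericyte-enriched gene whose product dampens signaling by Gq and Gi, fell from 305, 358 and 404 CPM to 79.7, 103 and 208 CPM (-1.31, adjusted p = 0.00895). *Adra1b*, an alpha-adrenergic receptor coupled to Gq, rose from 22.8, 23.4 and 28.1 CPM to 35.9, 40.4 and 44.4 CPM (0.90, adjusted p = 0.00393). None of these overlapped between the groups. *Nos3*, the endothelial nitric oxide synthase, rose by 0.50 (adjusted p = 0.0412) and *Agtr1b* by 1.26 (0.0346). *Agtr1b* is a close paralog of *Agtr1a* read at 0.827 to 3.60 CPM in these libraries, and how reads were split between the pair was not stated. With both sexes, *Lnpep* fell by 1.55 and 1.53, *Rgs5* fell by 1.65 and 1.34 and *Adra1b* rose by 0.89 and 0.66 on the log2 scale at the high and the low dose (highest adjusted p 0.0322), and *Adra1a*, a second receptor of that kind, fell by 0.69 at the low dose (0.0470). These were 3 of 31 and 4 of 31 listed genes tested, beside 12.5% of all genes at each dose, and nothing particular to the list is read from them.

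**Figure D2:**
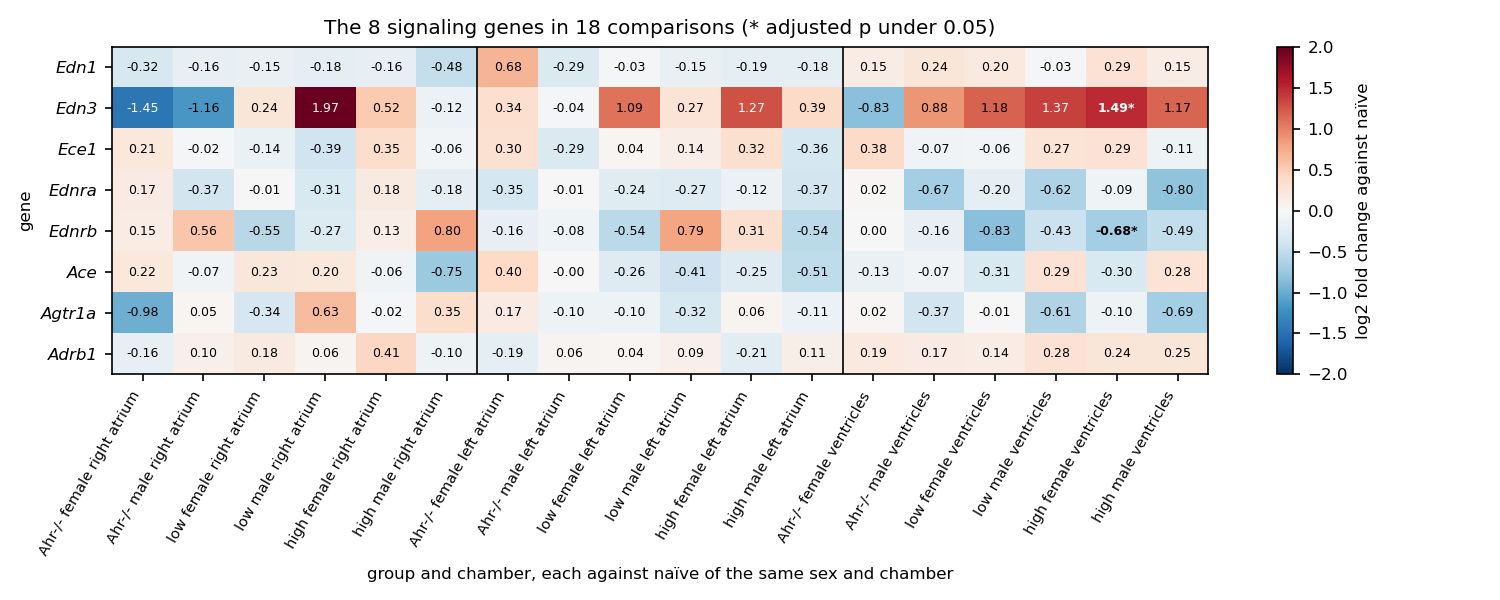
Log2 fold changes (color scale) of the 8 genes (rows) in the 18 comparisons of a group with naïve mice of the same sex and chamber (columns), as fitted by edgeR, with an asterisk at an adjusted p under 0.05. The 2 asterisks are *Edn3* (1.49) and *Ednrb* (-0.68) in high-dose female ventricles.

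Over the 17 other comparisons of a group with naïve mice of the same sex and chamber no member was called, and 13 of 136 tests had an unadjusted p under 0.05 (9.56%, beside 8.16% of the tests of all genes). In the atria 0% of genes were called in every comparison of 1 sex. With both sexes, 1 of 15529 genes was called in *Ahr*-/- right atria (0.00644%), 11 of 15240 in high-dose right atria (0.0722%), 2 of 15377 in *Ahr*-/- left atria (0.013%) and none in the others, and no member among them. The largest atrial fold change of a member was that of *Edn3* in low-dose male right atria, which stood at 9.11, 11.0 and 20.0 CPM against 1.79, 3.61 and 5.14 CPM in naïve males. All low-dose libraries lay above all naïve ones, but with a log2 fold change of 1.97 the adjusted p was 0.941 in edgeR. The highest library on either side went against its label, and without such libraries the value was 1.91 (adjusted p = 0.999), while DESeq2 called it on all libraries (0.0253). In male right atria at the high dose, *Ednrb* stood at 61.5, 66.0 and 84.6 CPM against 36.2, 43.2 and 48.8 CPM (0.80, adjusted p = 0.712 in edgeR, and 0.70 without libraries against their label). These groups did not overlap either, and the sign was opposite to that of *Ednrb* in the ventricles. For both genes nothing is read from the lack of overlap, since the share over all genes was not counted.

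*Edn3* was the most variable member. Its fold change against naïve was above 0 in 6 of 6 low-dose, 5 of 6 high-dose and 2 of 6 *Ahr*-/- comparisons, which share their naïve libraries. In left atria it ran from 0.0401 to 16.7 CPM at the high dose and from 0.174 to 14.8 CPM at the low dose, and from 0 to 9.93 CPM in naïve mice (n = 6 each). Without the libraries against their label, *Edn3* ran there from 7.15 to 16.7 CPM at the high dose (n = 4). It then ran from 5.57 to 13.45 CPM at the low dose (n = 3) and from 0 to 6.00 CPM in naïve mice (n = 4). Over the 72 libraries its Pearson r (log2 CPM) was 0.88 with *Ankrd23* and 0.81 with *Myot*, genes of the muscle sarcomere, and -0.57 with *Ednrb*. These correlations are descriptions of libraries that share hearts, chambers and numbering. *Adrb1* was the least variable, with fold changes between -0.21 and 0.41 over the 18 comparisons. It was above 0 in 14 of them, and in 6 of 6 at the low dose, as *Edn3* was. *Ednra* was below naïve in 15 of 18 and *Edn1*, *Ace* and *Agtr1a* each in 12 of 18, with no call. Nothing is read from these counts of signs, since the share over all genes was not set beside them. With sex as labelled, which sex genes went against in 8 libraries, none of the 9 tests of a difference between the sexes called a member (lowest adjusted p 0.873, with 0 of 72 tests at an unadjusted p under 0.05). None of the 6 comparisons of high with low dose did (4 of 48). Each of those 15 tests called 0% of genes. With libraries 1 to 48 alone, where sex genes matched every label, 8 of 72 member tests of a sex difference had an unadjusted p under 0.05 in edgeR (lowest adjusted p 0.137). Among all genes that share ran from 1.74% to 21.8% by test. Without the libraries against their label, the test of a sex difference in the high-dose effect in ventricles called 1172 of 14599 genes (8.03%) and no member. Of 31 listed pathway genes it called 3, each with a higher fold change in females than in males, namely *Lnpep* (log2 difference 1.49, adjusted p = 0.00429), *Adcy6*, an adenylyl cyclase (1.41, 0.00437), and *Agtr1b* (2.83, 0.0171), whereas on all libraries 0% of genes were called.

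**Figure D3:**
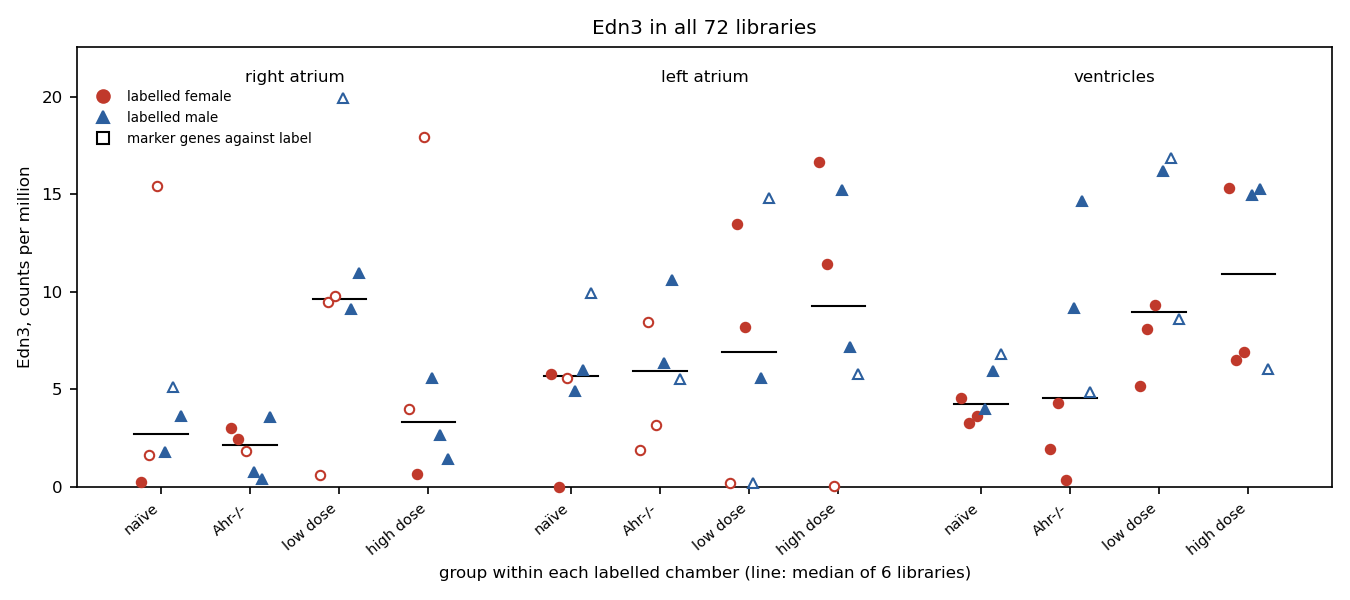
*Edn3* in CPM (vertical axis, from 0) in all 72 libraries by group within each labelled chamber (horizontal axis), with 1 point per library, marked by sex and by whether marker genes went against the label, and a line at the median of the 6 libraries of a group. In ventricles the high-dose and low-dose medians (10.9 and 8.96 CPM) stood above the naïve median (4.26 CPM). Atrial values within 1 group ran from near 0 to 20.0 CPM with the libraries against their label included.

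The chambers of naïve hearts were compared to place the genes where AHR was not disrupted. As labelled, *Ece1* was higher and *Agtr1a* lower in the atria than in the ventricles by their means, but no member passed the test over the 18 naïve libraries. *Ece1* ran from 117 to 376 CPM (median 181, n = 6) in right atria, from 79.0 to 223 CPM (169) in left atria and from 99.5 to 129 CPM (110) in ventricles. *Agtr1a* ran from 29.1 to 66.7 CPM (median 31.2) in right atria, from 21.2 to 49.3 CPM (42.2) in left atria and from 31.9 to 107 CPM (64.9) in ventricles. The ranges overlapped for both genes. The highest *Agtr1a* value of the right atria (66.7 CPM, library 4) and the lowest of the ventricles (31.9 CPM, library 53) were those of libraries that *Myl4* set against their label. Right atrium against ventricles, the log2 fold changes were 0.73 for *Ece1* (adjusted p = 0.143), -0.91 for *Agtr1a* (0.160), 0.43 for *Ednrb* (0.239) and 0.58 for *Ace* (0.295). Of all 14893 genes, 1 was called in that contrast (0.00671%) and 0% in the others.

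The other members did not pass the test between naïve chambers as labelled either. *Ednrb* ran from 23.6 to 64.9 CPM (median 41.0) in right and 19.5 to 52.9 CPM (37.6) in left atria, and *Ace* from 25.4 to 103 CPM (67.8) and from 39.2 to 108 CPM (63.6), beside 26.6 to 57.4 CPM (42.0) in ventricles. *Ednra* had medians of 96.7, 97.0 and 82.2 CPM and *Adrb1* of 19.0, 19.8 and 18.1 CPM in right atria, left atria and ventricles. *Edn1* had medians of 8.38, 8.07 and 7.68 CPM and *Edn3* of 2.70, 5.68 and 4.26 CPM. The ranges of *Edn3* were wide in the atria, at 0.250 to 15.4 CPM in right and 0 to 9.93 CPM in left atria. For all 8 genes the left and the right atrium overlapped and had adjusted p-values near 1.

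**Figure D4:**
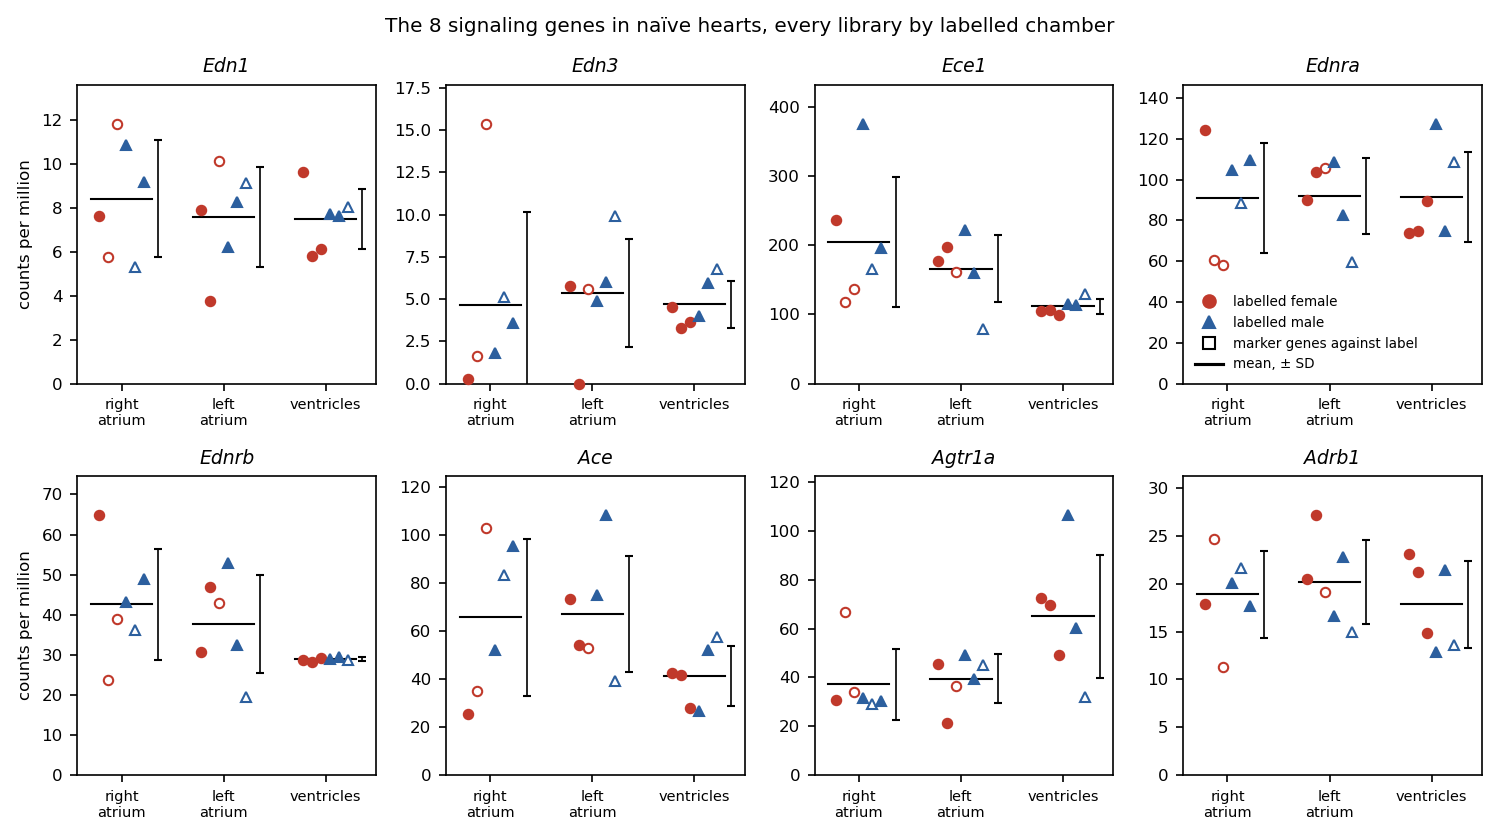
Levels of the 8 genes in CPM (vertical axis, from 0) in the 18 naïve libraries by labelled chamber (horizontal axis), with 1 point per library, marked by sex and by whether marker genes went against the label, and a line at the mean with an error bar of 1 SD. *Agtr1a* had its median at 64.9 CPM in ventricles and 31.2 CPM in right atria, with libraries against their label at 66.7 CPM in the right atrium and 31.9 CPM in the ventricles.

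Without the 6 naïve libraries against their label, 3 right atria, 4 left atria and 5 ventricles remained, and 3 of 8 members were called between right atrium and ventricles (22.3% of all genes). *Agtr1a* stood at 30.9 ± 0.551 CPM in right atria and 71.6 ± 21.5 CPM in ventricles (SD) with no overlap (-1.52, SE 0.254, adjusted p = 0.00160). *Ece1* stood at 269 ± 94.3 and 108 ± 6.66 CPM with no overlap (1.03, SE 0.183, adjusted p = 0.00224). *Ednrb* stood at 52.3 ± 11.3 and 29.0 ± 0.490 CPM (0.62, adjusted p = 0.0414). Left atrium against ventricles, *Agtr1a* (-1.16, adjusted p = 0.00511) and *Ece1* (0.56, 0.0393) were called, 2 of 8 members beside 15.3% of all genes, and no member was called between the atria (0.0661%). *Ace* was not called in right atria (0.13, adjusted p = 0.811 in edgeR) or left atria (0.70, 0.129) against ventricles. In the naïve libraries that matched their label, endothelial markers summed to medians of 753, 605 and 597 CPM, endocardial markers to 656, 426 and 50.7 CPM and fibroblast markers to 2294, 2463 and 1014 CPM in right atria, left atria and ventricles, and their part in these contrasts was not tested.

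With all 72 libraries in 1 fit, with group and sex as terms, 4 of 8 members differed between each atrium and the ventricles (33.6% of all genes for the right and 20.4% for the left). *Ece1*, *Ednrb* and *Ace* were higher in right atria by 0.61, 0.85 and 0.57 and in left atria by 0.39, 0.59 and 0.47, and *Agtr1a* fell by 0.76 and 0.68 (log2; highest adjusted p 0.0198). Chambers of 1 heart are not independent in that fit, and nothing particular to these genes is read from the shares called.

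**Figure D5:**
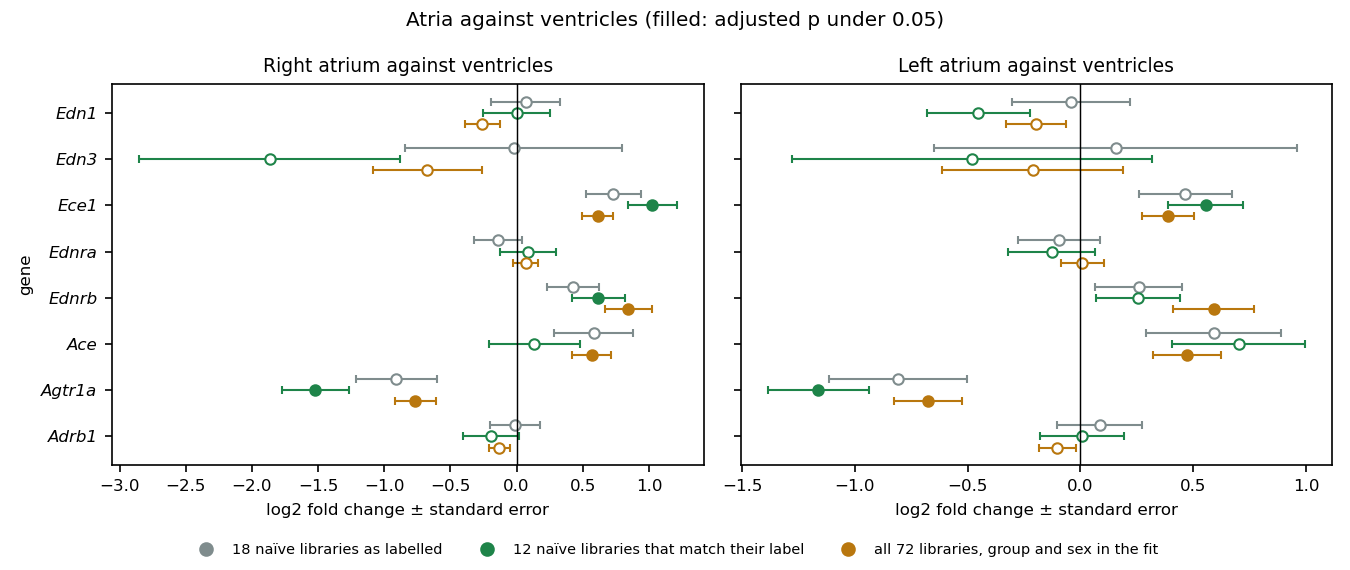
Log2 fold changes ± SE (horizontal axis) of the 8 genes (vertical axis) for right and left atrium against ventricles, over the naïve libraries as labelled, without those against their label and over all 72 libraries, with filled points at an adjusted p under 0.05. *Ece1* lay above and *Agtr1a* below 0 in all 3 fits, and for the naïve libraries as labelled no point is filled.

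Among the other pathway genes, 9 of 31 were called between right atrium and ventricles without the libraries against their label, beside 22.3% of all genes. *Arrb1*, a beta-arrestin that turns off receptors of this kind, was higher in right (1.32, adjusted p = 0.000209) and left atria (1.06, 0.000759). *Agt*, the precursor of the angiotensins, was higher in right atria (1.48, adjusted p = 0.0177). *Adra1a* (-2.23, adjusted p = 0.0181) and *Rgs5* (-2.03, 0.00308) were lower there, as was *Mme*, the endopeptidase neprilysin (-1.87, 0.00301). The others were *Arrb2*, *Nos3* and *Atp6ap2*, which were higher, and *Prkaca*, which was lower. Left atrium against ventricles, 5 of 31 were called beside 15.3% of all genes, with *Arrb1*, *Atp6ap2* and the aminopeptidase gene *Enpep* (0.87, adjusted p = 0.0163) higher and *Adra1a* and *Rgs5* lower.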

How the data were processed

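The authors aligned 50-cycle single reads of poly-A RNA to mm10 with TopHat after CASAVA 1.8 and deposited raw counts on coding regions. The annotation release and the treatment of strands and of reads with several alignments are not given in the sources used here. Counts were tested with edgeR 4.0.16 (quasi-likelihood, TMM, filterByExpr at 10 counts) in R 4.3.3, Benjamini-Hochberg over all genes tested, called at an adjusted p under 0.05, on 3 against 3 libraries of 1 sex and chamber, on both sexes, between naïve chambers, between doses and for sex differences. Fold changes use TMM, CPM the library total. Scripts were tested on simulated data. The 8 genes, the 36 pathway genes and the markers were chosen with earlier results of these data known. All 8 genes are named throughout, listed pathway genes where called in a comparison, and, for each member, the 2 genes with the highest Pearson r. Alternatives were no filter, RLE or library-size scaling, DESeq2 1.42.0, all 4 groups in 1 fit, a term for library numbers 1 to 48 against 49 to 72, libraries 1 to 48 alone, no libraries against their label, each library left out, and an adjusted p under 0.0001.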

Additional observations from a re-analysis of the deposited data

Results flagged for a closer look

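In 96 sets of 6 libraries (a gene in 1 group and chamber), 7 held a library far from the other 5 by Dixon's test, a share of 7.29% where chance gives about 1 in 20. *Edn3* stood at 15.4 CPM in naïve right atrium library 50 (others 0.250 to 5.14) and at 17.9 CPM in high-dose right atrium library 62 (others 0.639 to 5.59). *Ednrb* stood at 136 CPM in low-dose left atrium library 29 (others 6.16 to 54.4). *Ace* stood at 88.4 CPM in high-dose ventricle library 65 (others 22.5 to 39.3). *Agtr1a* stood at 66.7 CPM in naïve right atrium library 4 (others 29.1 to 34.2) and at 60.9 CPM in *Ahr*-/- left atrium library 57 (others 32.8 to 38.0). All of these libraries went against their label by marker genes. *Edn1* stood at 10.6 CPM in high-dose right atrium library 12 (others 5.05 to 6.76), which matched its label.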

How the results depend on the processing

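Over the 18 comparisons with naïve mice of 1 sex, members were called 2 times, 5 times by DESeq2, 0 times with all 4 groups in 1 fit and 0 times at an adjusted p under 0.0001, and 2 to 3 times with a library left out. With both sexes they were called 4 times, 0 times under 0.0001, 3 times with libraries 1 to 48 alone (without low-dose *Ednrb*), 3 times with all 4 groups in 1 fit (without low-dose *Edn3*), and 2 to 5 times with a library left out (2 without naïve female ventricle 35, 36 or 54). Between naïve chambers they were called 0 times, 1 time by DESeq2 (*Ece1*), 5 times without libraries against their label and 8 times over all 72 libraries, and 0 to 1 times with a library left out (1, *Agtr1a*, without right atrium 4 or ventricle 53). Between doses they were called 0 times and 1 time by DESeq2 (*Edn3* in male right atria), and the tests of sex differences called 0 under every alternative run. No called value changed direction under any alternative run. Without the libraries against their label, female right atria, *Ahr*-/- female left atria and the tests that need them could not all be run. No analysis paired by heart was possible because the labels do not say which libraries share a heart. Depth limits *Edn3* most, which was at or near the 3-count limit in several atria.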

Other observations

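Over the 72 libraries, the genes whose log2 CPM followed a member most closely were *Adgra2* and *Vwf* for *Ece1* (Pearson r of 0.92 each), *Adk* and *2310002L09Rik* for *Agtr1a* (0.90 and 0.89), *Ptprk* and *Crybg3* for *Ednrb* (0.87 each), *Dusp11* and *Nxt2* for *Ednra* (0.86 and 0.84), *Gm11651* and *Vcan* for *Ace* (0.82 and 0.76), *Kcng2* and *Ctbp1* for *Adrb1* (0.67 and 0.65) and *Dct* and *Mybpc2* for *Edn1* (0.63 and 0.57). *Gm11651* is an antisense gene that overlaps *Ace*, and without a stated treatment of strands its reads and those of *Ace* cannot be told apart. These values describe libraries that share hearts and chambers.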
